A study of Mus musculus with 54 samples.

Results

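MicroRNAs were compared between germ-free and conventionalized mice in Sox9-EGFP Low cells, a fraction of small-intestinal crypt cells sorted for low green fluorescence from a Sox9 reporter. The members are the 163 rows of the small RNA table that carry a plain microRNA name, without a sequence-variant suffix, and whose mean over the 8 libraries of the comparison was at least 50 RPMMM, the authors' read count scaled to a fixed total of reads mapped to microRNAs. They were taken from 635 plain-named rows among 2602 rows in all, and they held 94.5 to 95.7% of the RPMMM of a library. Each group had 4 libraries from small intestine of C57BL/6J mice. Germ-free mice live without microbes, and conventionalized mice are mice raised germ-free that later receive a microbiota; the source and length of that colonization, and the age, sex and diet of these 8 mice, were not given in the sources used here. All 8 libraries were made from the Low gate and carry the Sox9 reporter, so what the reporter itself does is common to both groups. A sorted fraction is a mixture of cells, and a lower value in it can come from fewer cells of a type or from less RNA per cell, which cannot be told apart here. The labels do not say whether any library pooled animals, and the p-values measure the spread between these libraries.

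Just inside the minimum lay miR-218-1-5p, miR-324-5p and miR-541-5p, with means of 50.7, 51.6 and 51.9 RPMMM. Just outside it lay miR-1940, miR-25-5p and miR-19a-3p, with 49.4, 44.4 and 43.2 RPMMM. Every member had a value above 0 in all 8 libraries. Copies of 1 mature sequence that lie at several places in the genome have rows of their own, so the 163 rows stand for 147 different mature names and rows of 1 sequence are not independent. The values of such rows are nearly the same in some cases (miR-16-1-5p and miR-16-2-5p) and far apart in others (miR-92a-1-3p and miR-92a-2-3p). The mean reached the minimum in the germ-free group alone for 6 members, of which 5 were called higher below, and in the conventionalized group alone for 17, of which 10 were called lower; these passed through the group where they are high, and their calls support nothing.

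MicroRNAs are short RNAs cut from a hairpin, and each hairpin can yield a mature strand from its 5p and from its 3p arm. The mature strand guides the silencing complex to mRNAs, mainly by pairing through its seed, bases 2 to 8 from the 5′ end, so microRNAs with the same seed can share targets. In the intestinal epithelium miR-375 is known from enteroendocrine cells, the hormone-producing cells of the crypt and villus, the miR-17-92 cluster from proliferating cells, and miR-192, miR-194 and miR-215 from absorptive cells. Sox9-EGFP Low cells are known as a fraction rich in intestinal stem cells.

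The sequences that carry the comparison follow, 5′ to 3′, from RefSeq (GRCm38.p6), with the seed in capitals. All but 21 of the members matched a RefSeq mature sequence by name. The 5 members with the seed of miR-17-5p are shown because every one of them was called lower in germ-free mice. Of these, miR-20b-5p and miR-106b-5p reached the minimum mean through the conventionalized group alone, so their calls support nothing.
miR-17-5p: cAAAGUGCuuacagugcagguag
miR-20a-5p: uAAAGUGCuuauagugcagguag
miR-20b-5p: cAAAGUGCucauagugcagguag
miR-93-5p: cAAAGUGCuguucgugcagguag
miR-106b-5p: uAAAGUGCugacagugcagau
Next are shown sets in which members with 1 seed had differences of opposite sign: miR-92b-3p, let-7e-5p, miR-141-3p and miR-26a-1-5p against the relatives printed after each.
miR-92b-3p: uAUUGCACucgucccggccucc
miR-92a-1-3p: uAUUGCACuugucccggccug
miR-25-3p: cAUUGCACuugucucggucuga
let-7e-5p: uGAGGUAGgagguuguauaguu
let-7g-5p: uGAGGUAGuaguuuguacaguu
let-7i-5p: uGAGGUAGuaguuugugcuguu
miR-141-3p: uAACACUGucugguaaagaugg
miR-200a-3p: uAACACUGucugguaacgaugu
miR-26a-1-5p: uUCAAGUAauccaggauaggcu
miR-26b-5p: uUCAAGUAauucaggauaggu
The last set holds the 2 largest positive differences, the largest negative one and the microRNA next after miR-375-3p among the abundant members of the endocrine list, with its relative miR-7b-5p.
miR-1224-5p: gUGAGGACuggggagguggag
miR-184-3p: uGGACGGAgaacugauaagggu
miR-34a-5p: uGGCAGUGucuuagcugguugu
miR-7a-1-5p: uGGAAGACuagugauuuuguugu
miR-7b-5p: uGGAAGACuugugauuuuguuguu

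Places are given on GRCm38 with the gene models of GENCODE vM21. The mature miR-1224-5p lies at chr16:20604452-20604472 on the plus strand, in an intron of Vwa5b2. miR-184-3p lies at chr9:89802263-89802284 on the minus strand. miR-34a-5p lies at chr4:150068473-150068494 on the plus strand. miR-17-5p at chr14:115043684-115043706 and miR-20a-5p at chr14:115044183-115044205 lie in exons of the noncoding gene Mir17hg on the plus strand. miR-93-5p at chr5:138165574-138165596 and miR-106b-5p at chr5:138165787-138165807 lie within Mcm7 on the minus strand, the first overlapping an annotated exon and the second in an intron. miR-20b-5p lies at chrX:52742159-52742181 on the minus strand. let-7e-5p lies at chr17:17830366-17830387, between miR-99b-5p at chr17:17830194-17830215 and miR-125a-5p at chr17:17830817-17830840, all on the plus strand within Spaca6.

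The mRNA libraries of the same 8 mice, matched by animal number, gave the makeup of the sort. The 4 pan-epithelial markers summed to between 88652 and 162166 normalized counts in every library, and Sox9 lay between 2146 and 6672. Genes of other cells were low but present: Ptprc, the pan-leukocyte gene, lay between 29.8 and 328 normalized counts, the fibroblast collagen gene Col1a1 between 0 and 176, and the T lymphocyte gene Cd3e between 0 and 17.5. The 15 enteroendocrine markers summed to between 486551 and 1060470 normalized counts in germ-free mice and between 111544 and 276774 in conventionalized mice. Of these 15, 8 were called higher in germ-free mice, where 1.95% of all 20214 genes tested were, none was called lower, and all 15 had a difference above 0. All 8 stem markers had a difference below 0 and none was called, with sums of 11444 to 64719 in germ-free and 55603 to 114582 in conventionalized mice. All 10 cycling markers also had a difference below 0, 2 of them called lower (0.292% of all genes were), with sums of 4076 to 17124 against 23642 to 31321. The 10 stromal or endothelial markers summed to 351 to 781 in germ-free mice against 40.2 to 336; all 7 of them that were tested had a difference above 0 and 1 was called higher. The 7 tuft markers summed to 5515 to 12352 against 1082 to 11106, and all 7 had a difference above 0 with none called. The T lymphocyte markers summed to 32.7 to 211 against 38.998 to 88.9, and none of the 3 tested was called. The 7 goblet markers summed to 48726 to 111983 against 17555 to 586627, with none called. The 5 Paneth markers summed to 16935 to 67900 against 37745 to 49261, all with a difference below 0 and none called. The 8 enterocyte markers summed to 18986 to 45024 against 15378 to 52547, with 1 called higher. No B lymphocyte, plasma or myeloid marker tested was called. The enteroendocrine, cycling and stromal or endothelial sums did not overlap between the groups, and their part in the microRNA results below was not tested.

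In all 8 libraries together, 82 of the 163 members were called different between the groups at a Benjamini-Hochberg adjusted p under 0.05 (limma on log2 of RPMMM + 1, adjusted over all 252 rows tested): 22 were higher and 60 lower in germ-free mice. Over the 252 rows, suffixed variants included, 42.5% were called in either direction, 13.9% higher and 28.6% lower, so the 50.3% among members lies near that background. The called members stand for 21 and 53 different mature names. The median difference was -0.43 over the members and -0.18 over all rows tested. These values are shares of a library, and miR-375-3p alone took 10.7 to 19.8% of the germ-free libraries. With median-of-ratios scaling the median over all rows moved to -0.03 and the called members split into 32 higher and 54 lower. All 82 kept their direction under that scaling and 76 kept the call. The values of the groups did not overlap for 88 members (54%), against 45.6% of the rows tested.

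**Figure D1:**
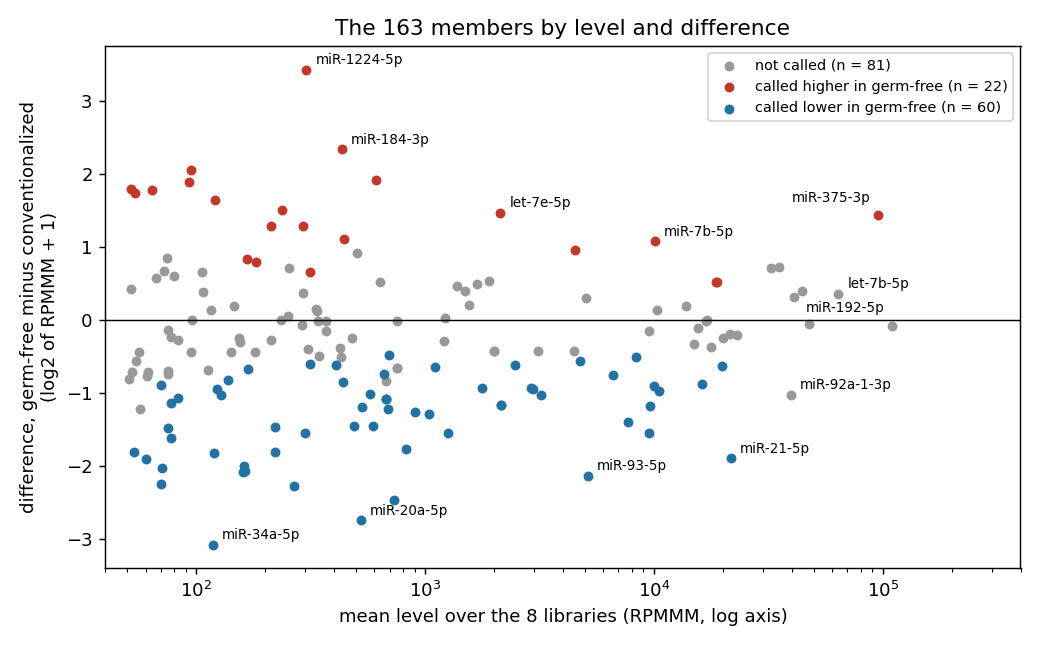
Difference between germ-free and conventionalized mice (log2 of RPMMM + 1, vertical axis) against the mean level over the 8 libraries (RPMMM, log horizontal axis) for the 163 members, 1 point each. The 22 members called higher reach 3.42 (miR-1224-5p) and the 60 called lower reach -3.08 (miR-34a-5p), and calls occur from the lowest to the highest levels. miR-34a-5p reached the minimum mean through the conventionalized group alone.

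Of the list of microRNAs known from endocrine cells, 10 of 17 rows were members, 6 were called and all 6 were higher in germ-free mice. Over all rows tested 42.5% were called and 13.9% were called higher. Of the 6, miR-153-3p reached the minimum mean through the germ-free group alone, so its call supports nothing. The median difference over the 10 was 0.93. The list was chosen with earlier results of these data known.

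miR-375-3p, a regulator of hormone secretion in endocrine cells and the microRNA in the series title, measured 119812, 106618, 198437 and 123624 RPMMM in germ-free replicates 1 to 4. Conventionalized replicates 1 to 4 measured 86006, 51228, 42327 and 31198 RPMMM. All 4 germ-free libraries lay above all 4 conventionalized ones, and germ-free replicate 3 was the highest. The means were 137123 ± 41520.5 and 52689.6 ± 23674 (SD, n = 4 each), a difference of 1.44 ± 0.30 (log2, SE; limma adjusted p = 0.00568). The exact permutation test, two-sided, gave p = 0.0286, the smallest that 4 against 4 allows. It was the most abundant microRNA in germ-free replicates 1 to 3, and miR-192-5p in germ-free replicate 4 and all 4 conventionalized libraries.

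miR-1224-5p is a mirtron, a hairpin released by splicing as a short intron, here of Vwa5b2. Its values were 621, 369.3, 854 and 367 RPMMM in germ-free replicates and 49.0, 21.8, 62.7 and 74.6 in conventionalized replicates, and the lowest germ-free value was above every conventionalized one. The difference of 3.42 ± 0.42 (log2, SE; limma adjusted p = 0.000992) was the largest among the members, a ratio of means of 10.6. miR-184-3p, a microRNA known from pancreatic beta cells and brain, had 595, 671, 736 and 866 RPMMM in germ-free and 89.2, 149, 145.4 and 198 in conventionalized replicates. Its groups were again apart, and its difference was 2.34 ± 0.25 (log2, SE; limma adjusted p = 0.000678).

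The miR-7 family, which is abundant in neuroendocrine cells, was split by the threshold rather than by direction. miR-7b-5p had 14193, 13125, 13477 and 12893 RPMMM in germ-free and 9158, 8871, 4111 and 4952 in conventionalized replicates, a difference of 1.07 ± 0.26 (limma adjusted p = 0.00964). The germ-free libraries lay close together, and conventionalized replicates 3 and 4 were the lowest of the 8. miR-7a-1-5p, the most abundant of the family, had 51461, 42537, 40105 and 38339 against 38185, 34957, 16940.2 and 20515 RPMMM. Its groups did not overlap, although germ-free replicate 4 and conventionalized replicate 1 nearly met, and it missed the threshold (0.71 ± 0.26, limma adjusted p = 0.0505). It passed without conventionalized replicate 1 (0.90, limma adjusted p = 0.0238) or replicate 2 (0.86, 0.0370), and with median-of-ratios scaling (0.87, 0.0293). miR-7a-2-3p, from a second hairpin whose 5p row has the same mature sequence as miR-7a-1-5p and was not called either (0.701, adjusted p = 0.0523), was called higher (1.11 ± 0.28, adjusted p = 0.0115). miR-153-3p, which lies in the islet autoantigen gene Ptprn2, had 54.1, 33.7, 147.8 and 102 against 39.8, 12.6, 20.04 and 19.9 RPMMM, with 1 germ-free library inside the conventionalized range. It reached the minimum mean through the germ-free group alone. Its difference was 1.73 ± 0.57 (adjusted p = 0.0334), and the call was lost without conventionalized replicate 2 (adjusted p = 0.0807) or replicate 3 (0.0555). miR-132-3p, a microRNA induced by neuronal activity, was higher by 0.79 ± 0.23 (adjusted p = 0.0204; 0.0574 without germ-free replicate 2). miR-182-5p and miR-183-5p, which are abundant in sensory and endocrine cells, had differences of 0.13 and 0.46 that were not called.

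Beyond that list, the 3 microRNAs of the miR-99b, let-7e and miR-125a cluster on chromosome 17 rose together, at 3 different levels. let-7e-5p had 2654, 2856, 3831 and 3169 RPMMM in germ-free and 1286, 1180.5, 822 and 1262 in conventionalized replicates. miR-99b-5p had 413, 439.5, 380.5 and 417 against 200.2, 159, 147 and 173, and miR-125a-5p had 283, 291, 326 and 298 against 169, 122, 98.6 and 110.0. In each of the 3 all germ-free libraries exceeded all conventionalized ones, and the germ-free values of miR-99b-5p and miR-125a-5p lay close together. The differences were 1.47 ± 0.20, 1.28 ± 0.16 and 1.28 ± 0.20 (log2, SE; limma adjusted p = 0.00115, 0.000992 and 0.00222). Of the list of miR-10, miR-99, miR-100 and miR-125, 2 of 4 members were called, both from this cluster, while miR-10a-5p and miR-10b-5p, which lie in the Hox clusters, had differences of -0.02 and -0.02. Over all rows tested 42.5% were called and 13.9% were called higher.

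Of 42 rows of the imprinted Dlk1-Dio3 cluster, whose microRNAs are made from the maternal chromosome, 2 were members. Both reached the minimum only through the germ-free group and were called higher. miR-127-3p had 95.2, 153.96, 170.4 and 179.6 RPMMM in germ-free and 34.9, 23.6, 82.7 and 20.3 in conventionalized replicates, with only conventionalized replicate 3 near the germ-free range, and a difference of 2.05 ± 0.45 (adjusted p = 0.00638). miR-541-5p was lower in level, with 41.1, 85.8, 113 and 78.9 against 18.1, 21.6, 46.2 and 10.6, and its groups overlapped in 1 library each. Its difference was 1.78 ± 0.53 (limma adjusted p = 0.0219).

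The remaining large positive differences came from single microRNAs. Of these, miR-574-5p and miR-672-5p reached the minimum mean through the germ-free group alone, so their calls support nothing. miR-744-5p, from an intron of Map2k4, had 1059.9, 659, 1295 and 819.9 RPMMM in germ-free and 261, 123.97, 330.4 and 339 in conventionalized replicates, a difference of 1.91 ± 0.35 (limma adjusted p = 0.00428). miR-574-5p, from an intron of Fam114a1, had 168, 110, 155.2 and 137 against 33.3, 16.8, 46.1 and 74.6. Its difference was 1.88 ± 0.42 (adjusted p = 0.00690), and conventionalized replicate 4 was the highest of its group. miR-672-5p had 126.3, 70.9, 114 and 83.3 against 50.7, 27.1, 16.9 and 23.6, a difference of 1.78 ± 0.40 (adjusted p = 0.00703). miR-139-3p, from an intron of Pde2a, had 179.8 ± 54.2 against 61.7 ± 34.04 RPMMM (SD, n = 4 each), and conventionalized replicate 4 came nearest to the germ-free libraries (1.64 ± 0.40, adjusted p = 0.00964). miR-92b-3p had 347, 296.9, 439.5 and 313 against 117, 121, 106.3 and 144.4, with tight groups and a difference of 1.499 ± 0.19 (adjusted p = 0.000992).

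**Figure D2:**
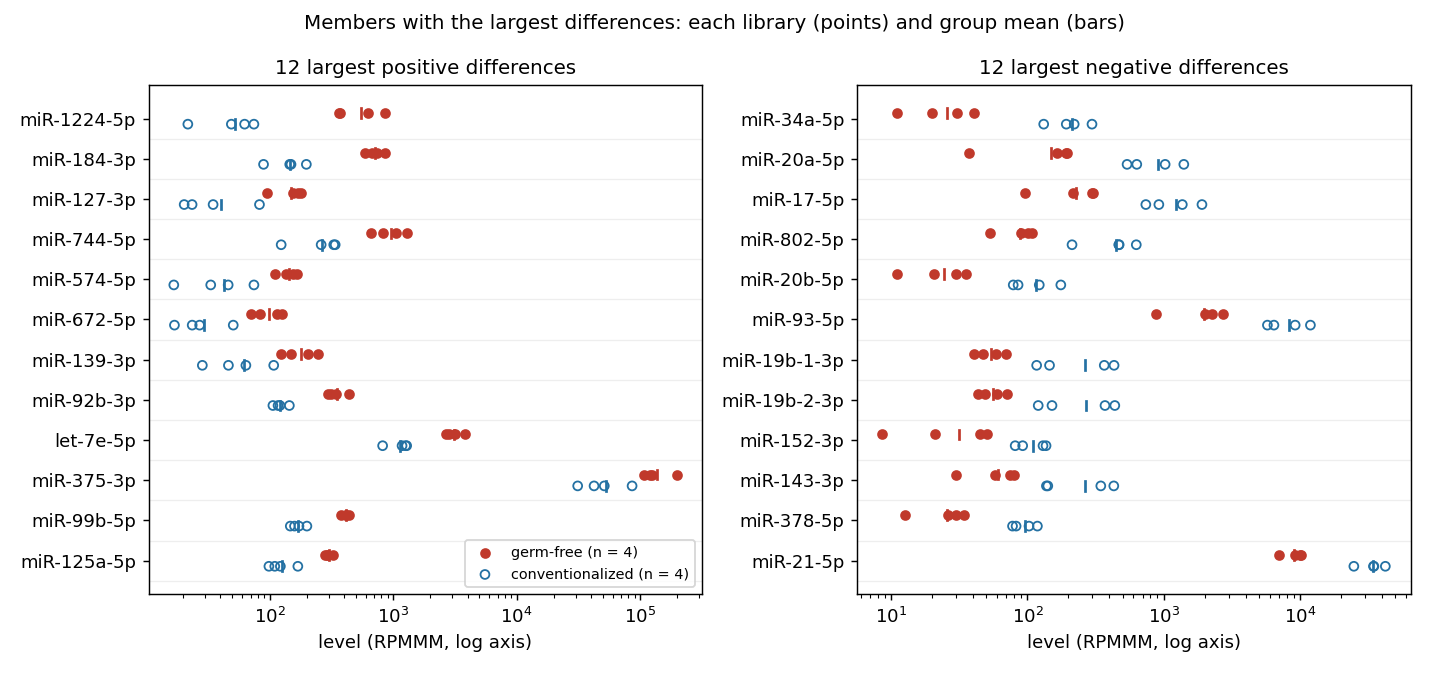
Level of the 12 members with the largest positive (left) and the 12 with the largest negative differences (right) among called members whose groups do not overlap, in RPMMM on a log axis. Filled points are the 4 germ-free libraries, open points the 4 conventionalized libraries and bars the group means; by the choice of members no germ-free point crosses a conventionalized one.

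The miR-17-92 cluster and its paralogues are known for promoting the cell cycle and for high levels in dividing cells. Of 13 members of the list 12 were called, 11 lower in germ-free mice and 1, miR-92b-3p, higher, with a median difference of -1.83 against -0.18 over all rows tested. Over those rows 42.5% were called and 28.6% were called lower. Of the 11, 3 reached the minimum mean through the conventionalized group alone: miR-17-3p, miR-20b-5p and miR-106b-5p. Their calls support nothing. All 4 called members from Mir17hg and all 4 members from Mcm7 were among the lower ones. So were all 3 members of the Mir92-2, Mir19b-2 and Mir20b cluster on chromosome X. Of these, miR-19b-2-3p and miR-92a-2-3p have the mature sequences of miR-19b-1-3p and miR-92a-1-3p from Mir17hg. A fall of the chromosome X cluster by itself is therefore not shown.

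miR-20a-5p had 196, 193, 37.5 and 165 RPMMM in germ-free and 1025, 1405, 635 and 538 in conventionalized replicates. miR-17-5p had 303, 298, 96.2 and 215.1 against 1369.9, 1909, 921 and 739. For both, germ-free replicate 3 was the lowest of the 8 libraries and every conventionalized library lay above every germ-free one. The differences were -2.75 ± 0.54 and -2.47 ± 0.42 (log2, SE; limma adjusted p = 0.00532 and 0.00335). miR-20b-5p, the copy on chromosome X, had 30.02, 35.3, 11.1 and 20.8 against 122, 176, 85.3 and 78.6 (-2.25 ± 0.45, adjusted p = 0.00539). miR-93-5p was the most abundant of the 5 that share this seed, with 2277, 2709.9, 879.5 and 2009 against 9231, 11945, 5775 and 6447 RPMMM and a difference of -2.14 ± 0.37 (adjusted p = 0.00336). miR-106b-5p had 64.9, 43.99, 36.6 and 48.9 against 268, 277, 118 and 98.8, the smallest difference of the 5 at -1.83 ± 0.38 (adjusted p = 0.00561). Both miR-20b-5p and miR-106b-5p reached the minimum mean through the conventionalized group alone, so their calls support nothing. Summed over the 5 microRNAs printed above with the AAAGUGC seed, germ-free mice held 2417 ± 965 RPMMM and conventionalized mice 10791 ± 3859 RPMMM (SD, 4 libraries each).

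The other seeds of these clusters gave a less even picture. miR-19b-1-3p had 47.4, 58.6, 40.2 and 69.4 RPMMM in germ-free and 432, 366, 145.1 and 117 in conventionalized replicates, a difference of -2.09 ± 0.43 (adjusted p = 0.00561), and the row of its second copy, miR-19b-2-3p, gave -2.08 ± 0.42 (adjusted p = 0.00561). miR-25-3p, also from the Mcm7 cluster, fell by 1.55 ± 0.27 (adjusted p = 0.00336). miR-92a-1-3p, by far the most abundant of the list, had 29940.4, 39748, 9745 and 27040 against 26728, 50099.5, 44493 and 90598 RPMMM. Its groups overlapped, conventionalized replicate 1 lying below 3 of the 4 germ-free libraries, and its difference of -1.03 ± 0.47 was not called (limma adjusted p = 0.09997); it was called with animals of neighbouring number as a block (adjusted p = 0.00531), with the lane set as a covariate (0.0462) and with the spread taken over all small RNA groups (0.0401). Without germ-free replicate 3 the difference of miR-92a-1-3p was -0.60 (adjusted p = 0.227).

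miR-34a-5p, a microRNA activated by p53, had the largest negative difference of all members. It reached the minimum mean through the conventionalized group alone, so its call supports nothing. It measured 40.4, 30.6, 11.1 and 19.98 RPMMM in germ-free and 220.2, 298, 131.5 and 193 in conventionalized replicates, and the highest germ-free value lay below the lowest conventionalized one by more than the range within the germ-free group. The difference was -3.08 ± 0.42 (log2, SE; limma adjusted p = 0.00115), a ratio of means of 8.25 in favour of conventionalized mice.

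miR-802-5p, known from liver and intestinal epithelium, had 89.7, 100.7, 53.3 and 107.1 RPMMM in germ-free and 471, 629, 468 and 212.3 in conventionalized replicates. Conventionalized replicate 4 was the lowest of its group but still above the germ-free libraries, and the difference was -2.28 ± 0.36 (adjusted p = 0.00222). miR-21-5p, one of the abundant microRNAs of epithelium and a marker of growth and inflammation, had 9137, 10188, 7079 and 9946 against 34922, 42394, 34702 and 24895. With a difference of -1.90 ± 0.19 it had the smallest standard error of the 12 largest negative differences (adjusted p = 0.000678). miR-152-3p had 50.3, 45.05, 8.58 and 21.01 against 92.2, 81.2, 129.99 and 137 (-2.03 ± 0.54, adjusted p = 0.0139), germ-free replicate 3 again being lowest. It reached the minimum mean through the conventionalized group alone.

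miR-143-3p is made by smooth muscle and other mesenchymal cells and was the only member of the mesenchymal and endothelial list. It had 58.2, 79.1, 30.02 and 74.8 RPMMM in germ-free and 138, 430.1, 140.9 and 345 in conventionalized replicates, a difference of -2.01 ± 0.46 (adjusted p = 0.00703). Whole dissected crypts and villi of other mice held 20835 ± 5314 and 20108 ± 21114 RPMMM, so all 8 sorted libraries were low in it. The summed stromal or endothelial mRNA markers ran the other way, as given above, and their part in this value was not tested. The strands of the miR-378 hairpin, known to lie in the metabolic regulator gene Ppargc1b, were both lower. miR-378-5p had 25.7 ± 9.35 against 95.2 ± 18.8 RPMMM (SD, n = 4 each), a difference of -1.91 ± 0.39 (adjusted p = 0.00561). It reached the minimum mean through the conventionalized group alone. miR-378-3p had a difference of -1.18 ± 0.22 (adjusted p = 0.00428).

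Other families held members that fell and none that rose. Over all rows tested 28.6% were called lower. All 4 members of the list of miR-15 and miR-16, known to restrain the cell cycle, fell, with a median of -1.17; miR-16-2-5p, the most abundant with its copy, had 1324 ± 259 RPMMM against 2970.3 ± 529 (SD, n = 4 each), and miR-15b-5p had the largest difference (-1.81). Both of miR-221-3p and miR-222-3p fell, with differences of -1.46 and -1.47. In the list of miR-130, miR-301, miR-148 and miR-152, 5 of 8 members fell and none rose, with a median of -0.999; miR-148a-3p had 7088 ± 1267 against 13989 ± 2351 RPMMM. All 3 rows of miR-103 and miR-107, which lie in the pantothenate kinase genes, fell, miR-107-3p by the most (-1.77). miR-29a-3p, a regulator of collagen genes, was the only member of its family and fell (-1.56, adjusted p = 0.00115).

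In the miR-30 list 4 of 10 members fell and none rose, with a median of -0.46; miR-30d-5p, the most abundant, had a difference of 0.19 that was not called. In the miR-181 list 4 of 7 fell and none rose, with a median of -0.93, while both rows of miR-181a-5p, the most abundant, had differences of -0.44. In the list of miR-23, miR-27 and miR-24, 2 of 5 fell, miR-27b-3p and miR-23b-3p (-0.57 and -0.603); miR-23b-3p dropped below the threshold in 4 of the 8 fits without 1 library. Of miR-31, miR-21, miR-203 and miR-210, 2 of 4 members fell: miR-21-5p, and miR-203-3p of differentiating epithelium (-1.56, adjusted p = 0.00561). miR-31-5p, known from intestinal regeneration, had 9015 ± 1406 against 10102 ± 1828 RPMMM and was not called (-0.16 ± 0.18). Of miR-101, 1 of 2 members fell, miR-101b-3p (-1.82). Over all rows tested 28.6% were called lower, and the counts of these small lists are a description.

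The leukocyte list had 3 members, miR-146a-5p, miR-146b-5p and miR-342-5p, none called, with a median of 0.14 and a range from -0.08 to 0.36. None of the rows of the Sfmbt2 cluster reached the mean of 50 RPMMM. Neither miR-182-5p nor miR-183-5p, the members of the list of miR-183, miR-96 and miR-182, was called.

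Of the 8 most abundant members only miR-375-3p was called. miR-192-5p, a microRNA of absorptive epithelium, had 80948, 98044, 120683 and 128199 RPMMM in germ-free and 114021, 109303, 127031 and 99978 in conventionalized replicates, with overlapping groups and a difference of -0.09 ± 0.16 (limma adjusted p = 0.649). miR-215-5p, its relative with the same seed, had 47725, 31249, 48962 and 53991 against 37486, 39599.9, 83596 and 37759 (-0.06 ± 0.28, adjusted p = 0.864). Both values changed sign under median-of-ratios scaling, to 0.06 and 0.09, and neither was called. miR-194, made from the same hairpin clusters, was lower in its 5p strand: miR-194-2-5p fell by 1.40 ± 0.32 (adjusted p = 0.00759), and miR-194-1-5p was called at the threshold (-0.91, adjusted p = 0.0486) and lost the call in 6 of the 8 fits without 1 library. In all, 2 of 7 members of the list of miR-192, miR-194 and miR-215 were called, both lower, where 28.6% of all rows tested were called lower.

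let-7b-5p had 87829, 78059.6, 59860.2 and 59688 RPMMM in germ-free and 49518, 46862, 47339.5 and 82880.4 in conventionalized replicates. let-7c-2-5p had 51787, 56084, 44888 and 47209 against 32728, 33028, 34209 and 55688, and the row of let-7c-1-5p had 45805, 51188, 39867 and 43128 against 30571, 31389, 33091 and 52992. In all 3 rows conventionalized replicate 4 stood among or above the germ-free libraries, and the other conventionalized libraries lay below every germ-free one. The differences of 0.36, 0.39 and 0.32 were not called (limma adjusted p = 0.193, 0.106 and 0.191). Without conventionalized replicate 4 they were 0.55, 0.58 and 0.50, and all 3 were called (limma adjusted p = 0.0161, 0.00378 and 0.00890). let-7c-2-5p was also called with median-of-ratios scaling (0.55, adjusted p = 0.0389) and with animals of neighbouring number as a block (adjusted p = 0.0399). Over the let-7 list, whose members are known to rise with differentiation, 3 of 13 were called, 1 higher and 2 lower, and the median difference was -0.01, or 0.14 with median-of-ratios scaling. Of all rows tested 42.5% were called.

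Some members with 1 seed were called in opposite directions. With the AUUGCAC seed, miR-92b-3p rose (1.499) while miR-25-3p fell (-1.55). The row of miR-92a-2-3p, at 639 ± 294 against 1437 ± 334 RPMMM, was also called lower (-1.30), but it has the mature sequence of the far more abundant row of miR-92a-1-3p, which was not called (-1.03). The RefSeq sequences of miR-92b-3p and miR-92a-3p printed above differ at 2 of 21 shared positions, counted from 1 at the 5′ end (C10U and C21G), and at none in the seed. Their levels differed greatly: miR-92b-3p had 349 ± 63.7 RPMMM in germ-free mice, whereas miR-92a-1-3p had 26618 ± 12494.

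With the let-7 seed, let-7e-5p rose (1.47) while let-7g-5p and let-7i-5p fell (-0.88 ± 0.21 and -0.64 ± 0.14, limma adjusted p = 0.00917 and 0.00703). let-7e-5p and let-7g-5p differ at 3 of 22 positions (G9U, G12U and U18C). let-7g-5p went from 20800.1 ± 2823 RPMMM in conventionalized to 11557 ± 2944 in germ-free mice, and its groups did not overlap. With the AACACUG seed, miR-141-3p rose: it had 4203, 4888, 7407 and 7233 RPMMM in germ-free and 2964, 1879, 3566 and 3949.8 in conventionalized replicates (0.95 ± 0.28, adjusted p = 0.0210; 0.0594 without germ-free replicate 3 and 0.0621 without replicate 4). miR-200a-3p, which differs from it at 2 of 22 positions (A17C and G22U), had -0.38 ± 0.15 and was not called.

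With the UCAAGUA seed, both rows of miR-26a-5p rose and miR-26b-5p fell. miR-26a-1-5p had 21380.4, 22126, 22712 and 22089.5 RPMMM in germ-free and 16227, 16168, 15048 and 14318 in conventionalized replicates, among the tightest groups of all members (0.52 ± 0.11, adjusted p = 0.00576). miR-26b-5p had 6965, 6813, 6536 and 7182 against 10324, 12277, 8769 and 8157 (-0.51 ± 0.16, adjusted p = 0.0265), and it lost the call with median-of-ratios scaling and in 6 of the 8 fits without 1 library. The sequences differ at 2 of 21 shared positions (C11U and C21U). All 3 microRNAs come from introns or exons of genes of the Ctdsp phosphatases.

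Across the miR-200 list, whose members keep epithelial cells from turning mesenchymal, 4 of 8 members were called, 3 lower and 1 higher, with a median of -0.41. Of all rows tested 42.5% were called, so the share in this list lies near that background. miR-429-3p and miR-200b-3p fell (-1.03 and -0.76), whereas miR-200c-3p, with the same seed and from another cluster, had -0.21 ± 0.16 and was not called.

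**Figure D3:**
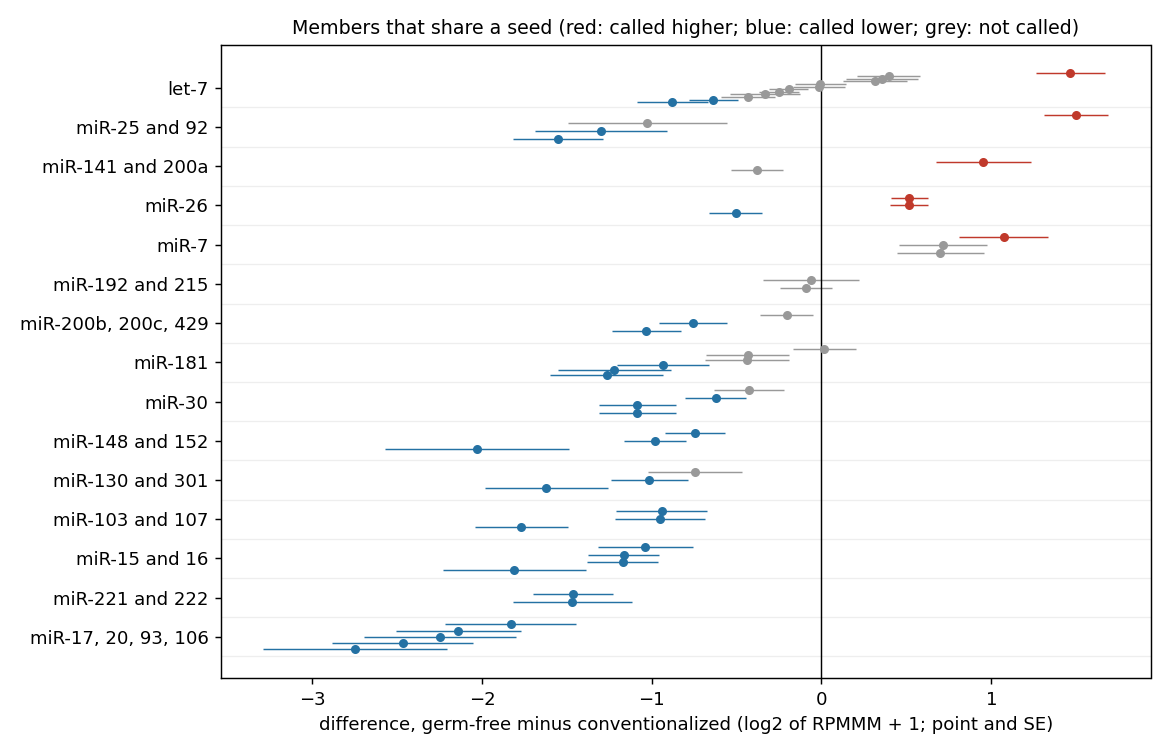
Difference between germ-free and conventionalized mice (log2 of RPMMM + 1, horizontal axis; point and SE) for the members of 15 seed families, 1 row of points per family. Points of the family of miR-17, miR-20, miR-93 and miR-106 all lie between -2.75 and -1.83. In that family miR-20b-5p and miR-106b-5p reached the minimum mean through the conventionalized group alone. The families of let-7, miR-25 with miR-92, miR-26, and miR-141 with miR-200a have points on both sides of 0.

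Both arms were members for 25 hairpins, and the arms had the same sign in 18. In 6 hairpins both arms were called, always in the same direction: miR-106b, miR-17, miR-28, miR-30e, miR-378 and miR-574. Over all rows tested 42.5% were called. The calls of miR-106b-5p, miR-17-3p, miR-378-5p and miR-574-5p support nothing, since each reached the minimum mean through 1 group alone. No hairpin had arms called in opposite directions. The arms were often unequal: miR-21-5p fell (-1.90) while its 3p strand, at 41.5 ± 17.6 against 80.1 ± 49.8 RPMMM, was not called (-0.77 ± 0.57). miR-181c-3p had -1.48 beside a 5p strand at 0.02, but it reached the minimum mean through the conventionalized group alone, so its call supports nothing. miR-574-3p rose with its 5p strand (0.83, adjusted p = 0.0486), but it lost the call in 7 of the 8 fits without 1 library. miR-28-3p lost it in 3 of them and miR-30e-5p in 2. Whether the 2 arms of a hairpin differed from each other was not tested.

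Genes that hold a microRNA on their own strand were read in the mRNA of the same mice. Replicate numbers of the conventionalized mice differ between the 2 kinds of library. Conventionalized mRNA replicates 1 to 4 are the mice of small RNA replicates 3, 4, 1 and 2, while germ-free numbers are the same in both. Of the members, 89 had such a host gene among those tested, 61 genes in all, and 2 of the 61 were called (limma on log2 of normalized count + 1, adjusted over 20214 genes), both higher. Of all genes tested 2.24% were called in either direction. At an unadjusted p under 0.05 there were 15 host genes (24.6%), near the 20.1% of all genes tested. The value is the level of the host gene's mRNA and not of the hairpin or its primary transcript.

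Vwa5b2, the host of miR-1224-5p, had 4450.0, 2171, 5384 and 3759 normalized counts in germ-free replicates and 518, 982, 1090.5 and 1133 in conventionalized replicates of the mRNA libraries. The groups did not overlap, and the difference was 2.07 ± 0.33 (log2, SE; limma adjusted p = 0.0129), beside 3.42 for the microRNA. Ptprn2, a protein of hormone granules and the host of miR-153-3p, had 721, 448, 861 and 551 against 135, 216, 169.6 and 156 (1.90 ± 0.29, adjusted p = 0.0129), beside 1.73. Without germ-free replicate 1 neither host gene was called (adjusted p = 0.0524 for both).

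Mcm7, a subunit of the replicative helicase and the host of miR-106b, miR-93 and miR-25, had 1973, 2832, 509.6 and 2538 normalized counts in germ-free and 4350.0, 4424, 3732 and 5279 in conventionalized replicates. Its difference of -1.43 ± 0.45 was not called (adjusted p = 0.132; -0.87 without germ-free replicate 3), while its 4 members fell by 1.45 to 2.14. Smc4, a condensin subunit and the host of miR-15b and miR-16-2, had -1.19 ± 0.33 (adjusted p = 0.0888; 0.0410 without germ-free replicate 4) beside -1.81 and -1.17. Mir17hg was low, with 31.7 ± 24.7 against 33.1 ± 11.4 normalized counts (SD, n = 4 each), and its difference of -0.29 ± 0.65 was not called beside -2.47 for miR-17-5p. Vmp1, which overlaps miR-21, had -0.52 ± 0.27 (adjusted p = 0.289). Map2k4 had -0.17 ± 0.26 while miR-744-5p rose by 1.91. Dleu2, the host of miR-15a and miR-16-1, had 0.31 ± 0.47 while both fell. The rows of miR-16-1-5p and miR-16-2-5p share 1 mature sequence, so its fall cannot be assigned to Smc4 or to Dleu2.

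Pairing each called member with each tested host gave 56 pairs. Of the 14 with a member that rose, 12 had a host difference above 0, as did 54.6% of all genes tested. Of the 42 with a member that fell, 32 had a host difference below 0, as did 45.4% of all genes. The pairs come from 11 and 26 host genes and those of 1 cluster share a host. Rows of 1 mature sequence, as for miR-16, miR-26a, miR-103 and miR-128, were paired with different hosts. The pairs are therefore a description.

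**Figure D4:**
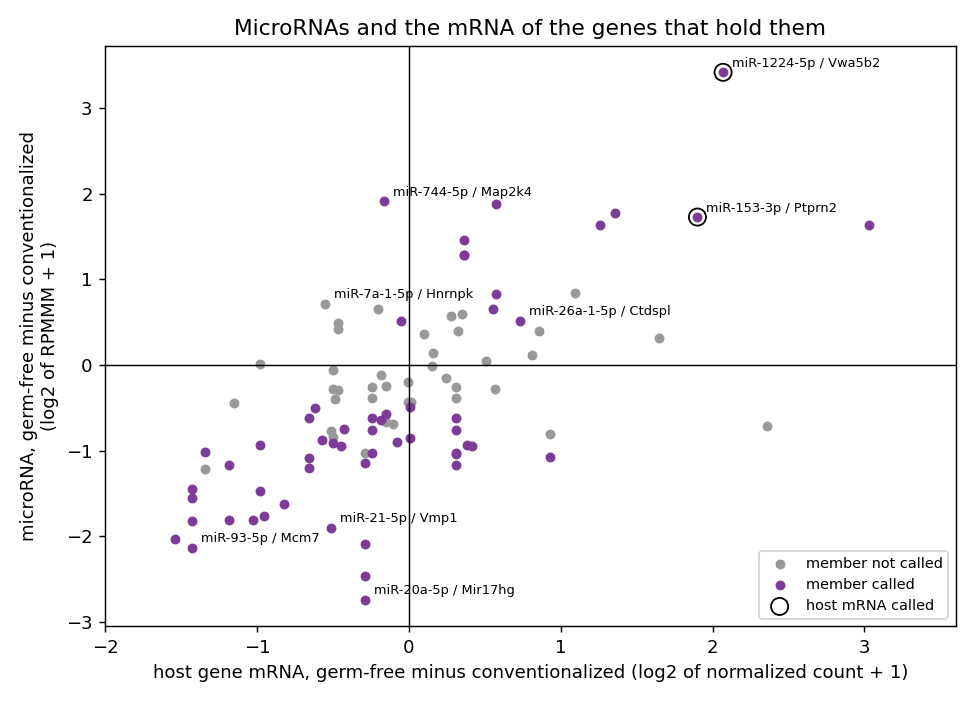
Difference between germ-free and conventionalized mice of the microRNA (log2 of RPMMM + 1, vertical axis) against that of its host gene's mRNA (log2 of normalized count + 1, horizontal axis), 1 point per pair. The ringed points are the 2 called host genes, Vwa5b2 at 2.07 and Ptprn2 at 1.90; the points at -1.43 on the horizontal axis are the 4 members within Mcm7.

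Libraries of other mice, which share no sample with the comparison, gave the members' levels in chow-fed Low cells, in Sox9-EGFP Negative cells sorted from the same chow-fed mice, and in dissected crypts and villi, with 4 libraries each. Across the 163 members, the germ-free minus conventionalized difference had a Pearson correlation of 0.69 with the Low minus Negative difference and of 0.20 with the crypt minus villus difference; the members are not independent points. Without chow replicate 3, whose columns name a high fat diet against its label, the first value was 0.67. All 22 members that rose in germ-free mice were higher in Low than in Negative cells, as were 39 of the 60 that fell and 135 of all 163. The chow Low libraries were run on lane 1 and the Negative ones on lanes 4 and 5, so gate and lane cannot be told apart in this difference.

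Of the 22 that rose, 10 were listed at 0 in all 4 Negative libraries, against 0 of the 60 that fell and 12 of all members. A value of 0 means below the lowest listed value, which was 1.57 to 5.92 RPMMM in these libraries. miR-184-3p was at 594 ± 464 RPMMM in chow Low cells and at 0 in Negative cells, and miR-1224-5p at 507 ± 649 and 0. miR-92b-3p and miR-125a-5p were also listed at 0 in every Negative library. miR-375-3p was at 78615 ± 47452 in Low and 566 ± 102.7 in Negative cells, and miR-7b-5p at 8925 ± 3571 and 28.1 ± 9.76. In dissected tissue miR-375-3p was at 16384 ± 4061 RPMMM in crypts and 6070.0 ± 1149.9 in villi.

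Among the members that fell, miR-802-5p was at 143.9 ± 73.1 RPMMM in chow Low and 346 ± 154.8 in Negative cells. miR-203-3p was at 747 ± 338 and 2235 ± 371, and miR-21-5p at 17320.1 ± 6969 and 26886 ± 5984. Of the members with the miR-17 seed, miR-17-5p was at 333 ± 209.7 and 356 ± 119, and miR-93-5p at 3669.7 ± 1419 and 2781 ± 355. miR-215-5p, which was not called between germ-free and conventionalized mice, was at 48485 ± 8599 in Low and 462822 ± 35733 in Negative cells.

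**Figure D5:**
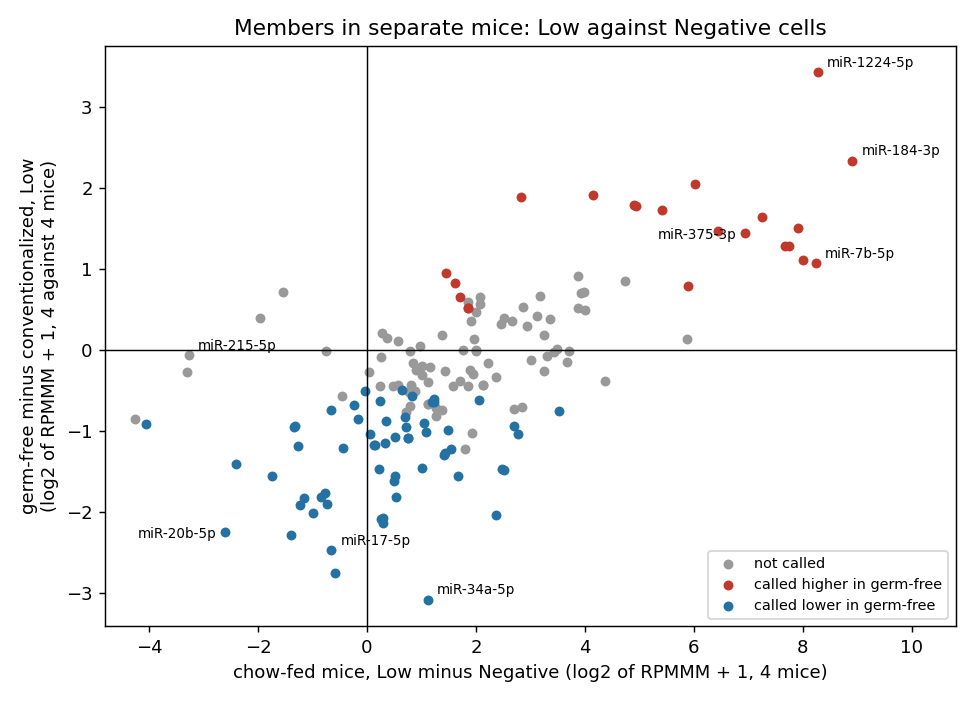
Difference between germ-free and conventionalized mice in Low cells (log2 of RPMMM + 1, vertical axis) against the difference between Low and Negative cells of 4 chow-fed mice (horizontal axis), 1 point per member. All 22 members called higher lie to the right of 0, and the 60 called lower lie on both sides of it; members at 0 in Negative cells are placed by the pseudocount of 1.

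Mean chow Low levels lay between the germ-free and conventionalized means for 19 of the 22 members that rose for 39 of the 60 that fell and for 79 of all 163. They were nearer to the conventionalized mean for 10 of the 22, for 13 of the 60 and for 54 of the 163. The chow mice differ from the 8 in more than their microbes, and no test was made against them.

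The column names give a sequencing lane. Germ-free replicates 1 and 2 and conventionalized replicates 3 and 4 were on lanes 1 to 3, and the other 4 libraries were on lanes 4 and 5 and came from animals of higher number. Lane set and range of animal numbers therefore cannot be told apart, and each set holds 2 libraries of each group. Within lanes 4 and 5 both germ-free libraries were on lane 4 and both conventionalized ones on lane 5. Lane and group therefore cannot be told apart in that set. Within lanes 1 to 3 only germ-free replicate 1 and conventionalized replicate 3 shared a lane. The column names of conventionalized replicates 1 and 2 start with CVGF and those of replicates 3 and 4 with CD, while all 4 start with CD in the mRNA table; the labels call all of them conventionalized. Within lanes 1 to 3, 22 members were called, 11 higher and 11 lower, where 11.1% of the rows tested were called. Within lanes 4 and 5, 33 members were called higher and 70 lower, where 62.8% of the rows tested were called. Over the called members tested in both sets, the median difference of those that fell was -0.90 within lanes 1 to 3 and -1.51 within lanes 4 and 5, and of those that rose 1.39 and 1.30; the sign within each set follows from the lack of overlap for 76 of the 82. miR-375-3p had 1.64 within lanes 1 to 3 and 1.24 within lanes 4 and 5. miR-17-5p had -1.45 and -3.48, miR-34a-5p had -2.15 and -4.01, and miR-7a-1-5p had 1.33 and 0.10. Whether these differences depend on the set was not tested.

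Base composition of the mature sequences was also compared. The median GC content was 50% over the 20 different sequences that rose, 45.5% over the 46 that fell and 46.5% over the 60 that were not called. Across these sequences the difference had a correlation of 0.27 with GC content, 0.24 within lanes 1 to 3 and 0.29 within lanes 4 and 5. Between the lane sets of the conventionalized group alone, the correlation with GC content was 0.44, and between those of the germ-free group alone it was 0.14.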

How the data were processed

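Small RNA libraries were made with the TriLink CleanTag kit, per the labels' protocols, from Sox9-EGFP Low cells of 4 germ-free and 4 conventionalized mice. The authors deposited RPM values per microRNA and sequence variant (RPMMM, scaled to reads mapped to microRNAs). The counting tool was not given in the sources used here. Lowest listed values of the libraries were 0.84 to 5.19 RPMMM, so 0 stands for any lower level. Whole reads could not be recovered from the values, and the depth is unknown. For mRNA the authors deposited normalized counts, treated as a signal per gene. STAR, Salmon, DESeq2 and mm10 are named, without roles, in the submitters' processing notes. Entries with no gene name held at most 0.0804% of these values and were left out. 4 columns that matched no sample were not used.

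Tests used limma 3.58.1 (R 4.3.3) on log2 of value + 1 in the 8 libraries with a trended variance. Rows with a mean of at least 50 RPMMM or 10 normalized counts were tested, and p-values were adjusted by Benjamini-Hochberg over all of them. A call is an adjusted p under 0.05, and adjusted p-values in the text are limma's. miR-375-3p also had an exact permutation test. Named microRNAs are miR-375-3p, the 12 largest differences in each direction among called members whose groups do not overlap, the 8 most abundant members, examples from each list and both arms of a hairpin. Other microRNAs named within their list, seed or cluster were picked after their values were seen. Members, lists and tests were chosen with earlier results of these data known. Replicate numbers did not pair the libraries: the deviations of same-numbered libraries had correlations of -0.376, -0.129, -0.548 and 0.169, and those of animals of neighbouring number 0.323, 0.483, 0.644 and -0.194. Alternatives were other scalings, pseudocounts, level minimums, left-out libraries, blocks and lane sets.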

Additional observations from a re-analysis of the deposited data

Results flagged for a closer look

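A library far from the other 3 of its group was found in 4 of the 62 groups of values examined, where chance gives about 1 in 20. For let-7b-5p, let-7c-2-5p and let-7c-1-5p the distant library was conventionalized replicate 4, the highest of its group, and the gap to its nearest neighbour took 0.926, 0.935 and 0.888 of the group's range, above Dixon's critical value for 4 samples. The 2 let-7c rows share a mature sequence. For miR-215-5p it was conventionalized replicate 3, also the highest, with 0.954 of the range.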

How the results depend on the processing

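The miR-375-3p difference stayed called under every alternative run, from 1.22 to 1.71 when 1 library was left out. Over the same fits the members called ranged from 71 (without germ-free replicate 3) to 95 (without conventionalized replicate 4), higher from 17 to 30 and lower from 53 to 65. Of the 82 called members, 65 were called in all 8 of these fits. With a minimum mean of 10 RPMMM 179 rows were called. With a minimum of 500 RPMMM, where fewer rows are tested, 49 rows and 45 members were called, 9 higher and 36 lower. Within lanes 1 to 3, with 4 libraries, 28 rows and 22 members were called, 11 higher and 11 lower. miR-192-5p, not called, changed sign with median-of-ratios scaling (0.0626), with scaling without miR-375-3p (0.0541) and within lanes 4 and 5 (0.156), and ranged from -0.1864 to 0.0347 with 1 library left out. miR-215-5p changed sign in the same 3 settings (0.0919, 0.0834 and 0.4162, the last called) and ranged from -0.1662 to 0.2195; the cause was not tested. Of 613 values for the 30 named microRNAs, 572 kept direction and call, 11 lost the call, all within lanes 1 to 3, 21 gained it and 9 changed sign. Most of the 30 were chosen as called members whose groups do not overlap. That choice fixes their sign when libraries are left out or split by lane, so the count of 572 supports nothing. Host genes called ranged from 0, without germ-free replicate 1, to 3, without germ-free replicate 4.

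With the replicate number as a block 97 rows and 73 members were called, 22 higher and 51 lower, and miR-375-3p had a limma adjusted p of 0.0124; the numbers do not pair the libraries. The planned edgeR fit was not run, because whole reads could not be recovered from the values. Depth is unknown, so no limit from it is given.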
